A study of Apis mellifera with 12 samples.

Results

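The microRNAs (miRNAs) ame-miR-12, ame-miR-283 and ame-miR-3477 of the honey bee (Apis mellifera), written below without the species prefix, are encoded next to one another in the bee genome. They are 3 of the miRNAs with a probe on the arrays of this series, of which 84 stood above background often enough to be tested, all 3 among them, and the other 84 did not. They were chosen by name, as genomic neighbours, and not by a measured value. The series measured miRNAs in worker brains after RNA interference against vitellogenin (Vg), the yolk precursor protein, and its design asked whether lowering Vg changes the brain's miRNA population. There were 2 groups: dsVg, brains of workers that received double-stranded RNA (dsRNA) directed at Vg, and dsGFP, brains of control workers that received dsRNA directed at green fluorescent protein, which bees lack. In both groups each worker was injected with 2 µL of dsRNA at 10 µg/µL on emergence, into the back of the abdomen, and was 15 days old when its brain was taken. Each group had 6 pools, each pool held the small RNA of 5 brains (200 ng per bee), and each pool was run on its own 1-colour array. The labels call the brains forager brains, but behaviour was not a factor, and the strength of the Vg knockdown was not analysed here because these arrays hold no probe for Vg mRNA.

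A miRNA is a short RNA that guides an Argonaute protein to messenger RNAs, mostly by pairing through its seed, the bases near its 5′ end. miRNAs that lie close together are often cut from 1 primary transcript, yet each is processed, loaded and degraded on its own, so mature levels of neighbours need not move together. In the fruit fly Drosophila, miR-12 and miR-283 are encoded together with miR-304 in an intron of the Gmap gene, and in the mosquito Aedes aegypti miR-12 has been studied in cells that carry Wolbachia bacteria.

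The 3 mature sequences that the probes target are as follows in the authors' scanner tables; they are given because the members share a locus but not a seed. Capitals mark the seed, bases 2 to 8.
miR-12: uGAGUAUUacaucagguacuggu
miR-283: aAAUAUCAgcugguaauucu
miR-3477: uAAUCUCAugcgguaacugugag
The 3 seeds differ from each other, and no other miRNA probe on the array shares bases 2 to 8, or 2 to 7, with any of them. The targets of miR-12 and miR-3477 are 23 nucleotides long and that of miR-283 is 20, against a median of 22 over all probes, and only 5 targets on the array have 20 nucleotides or fewer. GC content was 39.1% for miR-12, 30% for miR-283 and 43.5% for miR-3477, against a median of 45.5%. Each member differs from its nearest other target on the array by 9 edits, which is also the median over all probes, so none of the 3 has an unusually similar probe beside it. In the RefSeq gene table of the assembly Amel_HAv3.1 the order of the precursors is Mir12, Mir3477 and Mir283, each pair lies within 10 kb, and all 3 lie inside the span of 1 protein-coding gene, LOC411348. That table gives no strand, and the array files name no genome build, so whether the precursors share the gene's strand was not analysed here.

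The arrays differed in how many miRNAs stood above their background, which bears on the dim members. On 6 arrays (3 of each group) 97 or more miRNAs exceeded the 95th percentile of the empty spots. On the other 6 arrays (3 of each group) 34 to 60 did. The split was drawn at 80 miRNAs. Among these other arrays the number was 47, 34 and 52 in dsVg pools 4, 5 and 6. It was 56, 49 and 60 in dsGFP pools 2, 5 and 6. In dsVg pools 4, 5 and 6 and dsGFP pool 2 the median miRNA probe lay below the median empty spot. In dsGFP pools 5 and 6 it lay above. The 6 arrays with 97 or more are called here the arrays with many detected miRNAs. Most miRNA probes lay above the empty spots on them, so exceeding the empty spots there is a weak criterion. The neuronal miRNA miR-124 and the brain miRNAs miR-276 and miR-2796 exceeded the empty spots on all 12 arrays and miR-137 on 11, while the muscle miRNAs miR-1 and miR-133 did so on 11 and 12 and the gut and endocrine miRNAs miR-375 and miR-275 on 9 and 12. The summed ratio of the 2 muscle markers to the empty spots was 2.56 to 21.4 in dsVg pools and 3.79 to 31.9 in dsGFP pools, and that of the 2 gut and endocrine markers was 3.83 to 22.7 and 3.95 to 28.1. Their part in the results below was not tested.

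The members differed in how far their own signal stood above the background of the array. miR-3477 exceeded the empty spots on all 12 arrays, miR-12 on 10 and miR-283 on 7. Over all miRNA probes, 50% exceeded the empty spots on at least 6 arrays, which all 3 members did and which was the condition for testing a miRNA, and 19.6% did so on all 12, which of the members only miR-3477 did. An intensity is given below as the mean of the 18 spots of a probe over the median of the 608 empty spots of the same array, so 1 is the level of an empty spot. Levels of different probes are not compared with each other, because probes bind with different strength.

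For miR-3477 the ratio was 1.45, 3.80, 7.82, 2.75, 1.70 and 2.78 in dsVg pools 1 to 6, against 2.16, 2.46, 7.89, 3.45, 1.74 and 2.11 in dsGFP pools 1 to 6. Every one of its 18 spots exceeded the threshold on every array, and the groups overlapped over most of their range. dsVg pool 3 and dsGFP pool 3 stood far above the other pools of their group. On the authors' deposited scale, which holds whole numbers processed by a method not given in the sources used here, miR-3477 ran from 147 to 519 in dsVg pools, with 258 the next highest, against 160 to 251 in dsGFP pools. There dsVg pool 5 was highest and dsVg pool 3 lowest, so the pool order differed from that of the raw ratios.

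For miR-12 the ratio to the empty spots was 1.23, 1.36, 4.83, 1.07, 0.796 and 1.26 in dsVg pools 1 to 6, against 1.44, 1.82, 2.32, 1.44, 1.27 and 1.48 in dsGFP pools 1 to 6. dsVg pool 3 again had the highest raw signal. Of the other 5 dsVg pools 4 lay below every dsGFP pool by this ratio. The exception was dsVg pool 2 at 1.36, against dsGFP pool 5 at 1.27. Against the median miRNA probe of the same array, a second measure of background, the group medians lay closer. By that measure miR-12 ran from 1.03 to 4.24 (median 1.32) in dsVg pools and from 1.20 to 1.97 (median 1.34) in dsGFP pools. The threshold was exceeded on all 6 dsGFP arrays and on 4 of 6 dsVg arrays: in dsVg pools 4 and 5 none of the 18 spots exceeded it, and in dsVg pool 6 it was exceeded by 14. dsVg pools 4, 5 and 6 were all among the arrays with fewer detected miRNAs, where miR-12 exceeded the threshold on 4 of 6 arrays, against 6 of 6 of the others. The deposited values were 73, 37, 109, 42, 46 and 53 in dsVg pools, against 74, 123, 39, 46, 71 and 100 in dsGFP pools, and the groups overlapped.

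miR-283 lay at or near the background in most pools. Its ratio to the empty spots was 1.16, 1.07, 1.76, 0.801, 0.768 and 0.944 in dsVg pools 1 to 6, against 1.16, 1.35, 1.13, 1.10, 1.03 and 1.05 in dsGFP pools 1 to 6. dsVg pool 3 was the one array on which all 18 of its spots exceeded the threshold, and dsVg pools 4, 5 and 6 had none. The value of dsGFP pool 2 rests on 2 spots, at intensities of 1490 and 1428, while the other 16 spots ran from 287 to 321 and all lay below the threshold of 352.6; without these 2 spots the ratio was 0.954, and miR-283 exceeded the empty spots on 6 arrays. All 6 of those are arrays with many detected miRNAs, where most miRNA probes did the same. Against the median miRNA probe of the same array, used as a second measure of background, miR-283 lay between 0.957 and 1.55, and above it on 4 dsVg and 2 dsGFP arrays, whereas miR-12 (1.03 to 4.24) and miR-3477 (1.21 to 6.87) lay above it on all 12. The deposited values of miR-283 were 23, 21, 65, 35, 44 and 35 in dsVg pools, against 23, 42, 26, 19, 23 and 28 in dsGFP pools, where the column medians of the deposited table ran from 22 to 29.5.

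**Figure D1:**
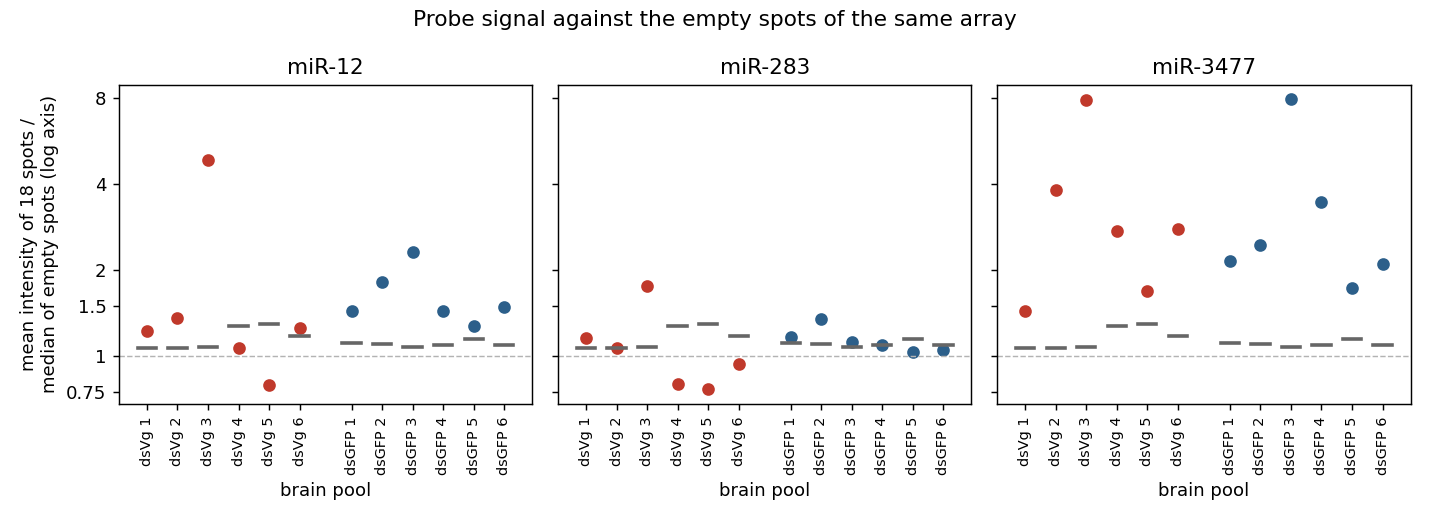
Mean intensity of the 18 spots of each probe over the median of the empty spots of the same array (log axis), for dsVg pools (red) and dsGFP pools (blue). Grey bars mark the 95th percentile of the empty spots on that array: miR-3477 lies above it in all 12 pools, miR-12 in 10 and miR-283 in 7, with dsVg pool 3 highest of the dsVg pools in each panel.

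The treatment comparison asked whether the signal of any member differed after Vg knockdown. None of the 3 differed beyond the spread between pools: miR-12 was lower by point estimate, miR-3477 higher, and miR-283 near 0, each with an adjusted p far above 0.05. The values are log2 signals after background correction and quantile normalization over all miRNA probes. The fit was made with limma over all 84 tested miRNAs, of which 0% passed an adjusted p of 0.05 (0 of 84) and 3.57% (3 of 84) had an unadjusted limma p under 0.05; an exact permutation test also put 3 under 0.05. None of the members was among those 3.

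For miR-12 the normalized log2 signals in dsVg pools were 6.90 at the lowest, 7.41 at the median and 7.81 at the highest, against 7.24, 7.73 and 8.0 in dsGFP pools. The mean was 7.38 ± 0.32 in dsVg and 7.66 ± 0.31 in dsGFP pools (SD, n = 6 each). The difference was -0.28 (SE 0.18, 95% interval -0.67 to 0.10, limma p = 0.137, adjusted p = 0.772, exact permutation p = 0.160), and 5 of 6 dsVg pools lay below the dsGFP mean. Ranked by p-value it stood at place 14 of 84. The interval runs from 0.630-fold to 1.07-fold on this scale, which near background understates any change in abundance. Leaving out dsVg pool 5 alone brought the difference to -0.19, and leaving out dsGFP pool 2 brought it to -0.20.

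By point estimate that difference varied with the sort of array. It was 0.093 within the arrays with many detected miRNAs and -0.66 within the others, where 2 of the 3 dsVg arrays had no miR-12 spot above the threshold. The interaction between treatment and sort of array, the second value minus the first, was -0.75 (SE 0.29, unadjusted p = 0.0285, limma adjusted p = 0.835 over 84 miRNAs), which does not pass. Each of the 2 values compares 3 dsVg pools with 3 dsGFP pools.

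For miR-3477 the normalized log2 signals were 8.54 at the lowest, 8.83 at the median and 9.80 at the highest in dsVg pools, against 8.54, 8.77 and 8.95 in dsGFP pools. That lowest value was shared by dsVg pool 3 and dsGFP pools 2 and 3, which without normalization stood at 9.89, 9.24 and 9.17. dsVg pool 1 was lowest without normalization (7.78) but at 9.20 with it, so the order of the pools depended on the normalization. The mean was 8.97 ± 0.47 in dsVg and 8.73 ± 0.17 in dsGFP pools (SD, n = 6 each), a difference of 0.24 (SE 0.20, 95% interval -0.18 to 0.67, limma p = 0.240, adjusted p = 0.772, exact permutation p = 0.310). Of the dsVg pools, 3 lay above the dsGFP mean and 3 below. The wider spread of the dsVg pools came from dsVg pool 5 at 9.80 and dsVg pool 1 at 9.20, and without dsVg pool 5 the difference was 0.081. dsVg pool 5 was the array with the fewest detected miRNAs (34) and the brightest empty spots (median 478). It was also the only one with whole-number intensities alone. The part of these traits in its values here and below was not tested.

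For miR-283 the normalized log2 signals were 6.49 at the lowest, 6.73 at the median and 6.88 at the highest in dsVg pools, against 6.51, 6.61 and 6.96 in dsGFP pools, the last being dsGFP pool 2 with its 2 bright spots. The mean was 6.69 ± 0.14 in dsVg and 6.66 ± 0.17 in dsGFP pools (SD, n = 6 each), a difference of 0.03 (SE 0.10, 95% interval -0.19 to 0.25, limma p = 0.788, adjusted p = 0.895, exact permutation p = 0.745). Because most pools lie at or near background, the narrow interval describes the probe's signal and bounds no change in the miRNA.

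**Figure D2:**
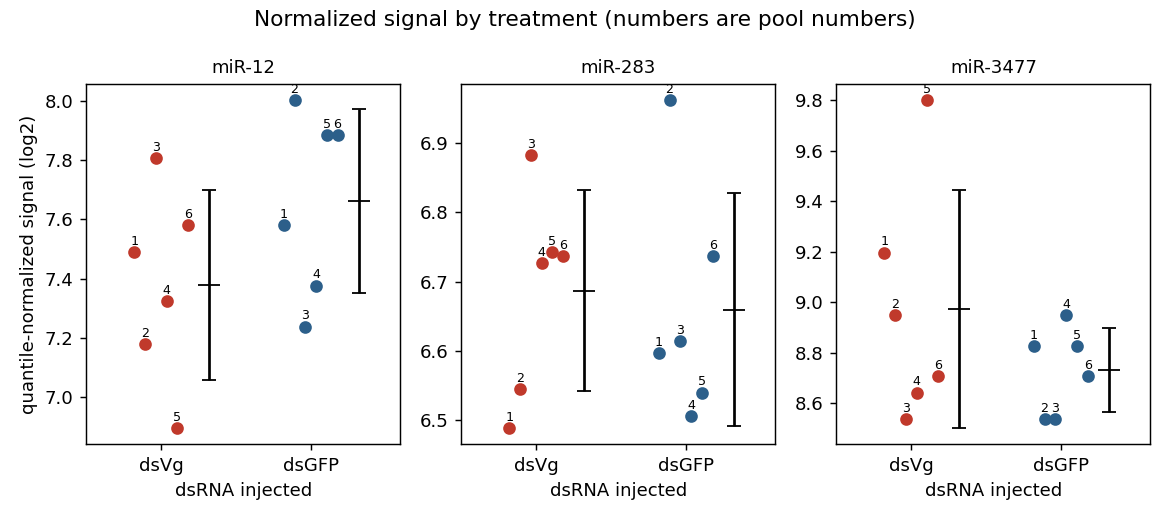
Quantile-normalized log2 signal of each miRNA in the dsVg pools (red, left) and the dsGFP pools (blue, right), with the pool number at each point; bars give the mean and SD of 6 pools, and each panel has its own axis. The groups overlap in all 3 panels, and dsVg pool 5 is lowest for miR-12 (6.90) and highest for miR-3477 (9.80).

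The authors' deposited values, tested as log2(value + 1), gave a difference of -0.32 for miR-12 (SE 0.33, limma adjusted p = 0.681), 0.25 for miR-3477 (SE 0.27, limma adjusted p = 0.685) and 0.40 for miR-283 (SE 0.28, limma adjusted p = 0.640). None passed the threshold. Scaling each array by a constant moved all tested miRNAs together, with miR-12 at -0.18 and miR-3477 at 0.090 relative to the median difference of all. Quantile normalization put them at -0.31 and 0.22 relative to it, and cyclic loess at -0.33 and 0.061. The median difference of all tested miRNAs was 0.15 without normalization and 0.03 with quantile normalization. It was -0.31 when arrays were scaled to the 75th percentile of the miRNAs detected on all arrays. Under that percentile miR-3477 was at -0.22 and miR-283 at -0.26, which is 0.090 and 0.047 above that median, and both lay above the median of all tested miRNAs under each scaling run. With other background settings miR-283 lay below it (-0.11 relative to the median with plain subtraction and -0.01 without background correction). miR-12 was negative under each of the 8 other background and scaling settings of that comparison, from -1.05 with plain subtraction to -0.02 without normalization.

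The members were next compared with each other within arrays, since a ratio of 2 signals of 1 array is unaffected by a constant scaling. Quantile normalization is no such scaling. The pool ratios, means and p-values below are from quantile-normalized values, and the difference between groups is also given without normalization. A ratio still depends on how well each probe binds, so it is read only between groups. Where a probe lies at background the ratio is one of signal to background, not of 2 miRNAs. By the empty-spot threshold this holds for miR-283 on 5 of 12 arrays, and on 6 without its 2 bright spots. By the same threshold it holds for miR-12 in dsVg pools 4 and 5, although miR-12 lay above the median miRNA probe on all 12 arrays. The log2 ratio of miR-12 to miR-283 was 1.00, 0.63, 0.92, 0.60, 0.15 and 0.85 in dsVg pools 1 to 6, against 0.98, 1.04, 0.62, 0.87, 1.34 and 1.15 in dsGFP pools 1 to 6. After quantile normalization all 6 dsVg pools lay below the dsGFP mean and the groups overlapped. That count does not hold without normalization, where dsVg pool 3 had the highest ratio of all pools (miR-12 at 9.14, miR-283 at 7.41). In dsVg pools 4 and 5 neither probe exceeded the empty-spot threshold, and in dsVg pool 6 miR-283 did not. The mean was 0.69 ± 0.31 in dsVg and 1.00 ± 0.24 in dsGFP pools (SD, n = 6 each), which puts the dsVg mean at -0.31 relative to dsGFP (exact permutation test, two-sided, p = 0.0758, adjusted p = 0.772 over the 3486 pairs of tested miRNAs). Without dsVg pool 5 it was -0.20, without normalization -0.22 and with plain subtraction of the background -0.95. Within the arrays with many detected miRNAs it was 0.03, and within the others it was -0.64, where miR-283 exceeded the empty spots on 1 of 6 arrays.

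The log2 ratio of miR-12 to miR-3477 was -1.71, -1.77, -0.73, -1.32, -2.90 and -1.13 in dsVg pools 1 to 6, against -1.25, -0.54, -1.30, -1.57, -0.94 and -0.83 in dsGFP pools 1 to 6. Without normalization dsVg pool 5 was not the lowest: miR-12 and miR-3477 stood at 7.46 and 9.24 there, against 7.31 and 9.17 in dsGFP pool 3. After quantile normalization dsVg pool 5 was far lower than any other pool. The mean was -1.59 ± 0.75 in dsVg and -1.07 ± 0.37 in dsGFP pools (SD, n = 6 each), which puts the dsVg mean at -0.52 relative to dsGFP (exact permutation test, two-sided, p = 0.152, adjusted p = 0.811), with 5 of 6 dsVg pools below the dsGFP mean. Without dsVg pool 5 the difference was -0.27. Without normalization it was also -0.27, and with plain subtraction it was -1.33. It was -0.03 within the arrays with many detected miRNAs and -1.02 within the others.

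The log2 ratio of miR-283 to miR-3477 was -3.06 at the lowest, -2.19 at the median and -1.66 at the highest in dsVg pools, against -2.44, -2.10 and -1.58 in dsGFP pools. The dsVg mean stood at -0.21 relative to dsGFP (exact permutation test, two-sided, p = 0.416, adjusted p = 0.811), and it was -0.07 without dsVg pool 5, -0.04 without normalization and -0.38 with plain subtraction. Since miR-283 did not exceed the empty-spot threshold in dsVg pools 4, 5 and 6 and in dsGFP pools 5 and 6, this comparison bounds no change in miR-283. Over all 3486 pairs of tested miRNAs 0% passed the adjusted threshold and 5.34% had an unadjusted exact permutation p under 0.05, and none of the 3 ratios of members was among those. No ratio of members differed between the groups beyond the spread between pools, and for the 2 ratios with miR-283 the test concerns probe signals only.

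**Figure D3:**
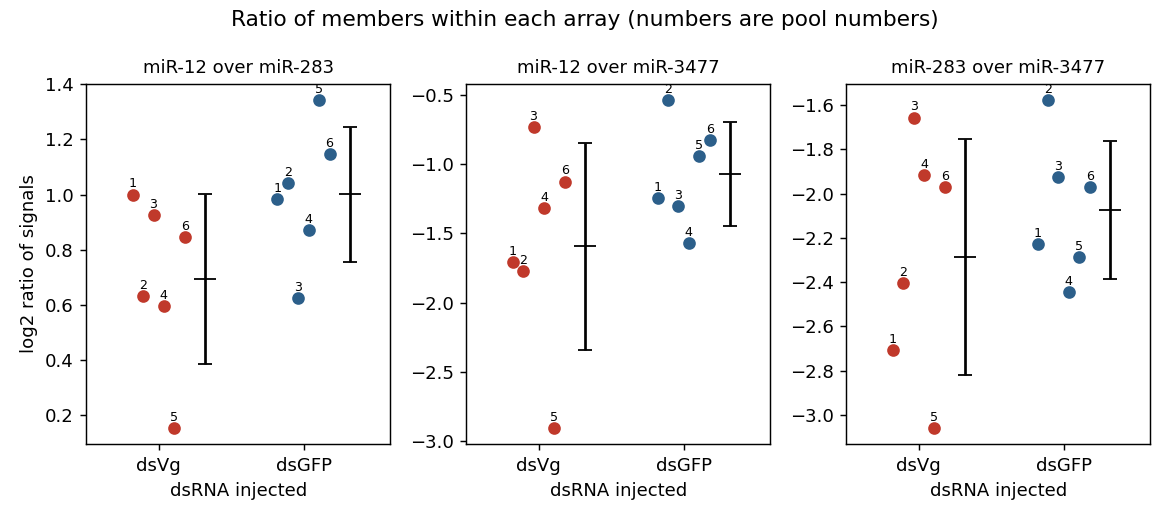
Log2 ratio of the normalized signals of 2 members on the same array, for dsVg pools (red, left) and dsGFP pools (blue, right), with pool numbers and the mean and SD of 6 pools; each panel has its own axis. With these quantile-normalized values all 6 dsVg pools lie below the dsGFP mean of 1.00 for miR-12 over miR-283, and dsVg pool 5 is lowest in all 3 panels. Neither statement holds without normalization.

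Co-variation over the 12 pools asked whether the 3 neighbours move together. Because miR-283 exceeded the empty spots on only 7 of 12 arrays, both of its pairs partly set the other member against a background signal. After quantile normalization no pair passed the adjusted threshold; by point estimate r was positive for miR-12 and miR-283 and negative for both pairs with miR-3477. For miR-12 and miR-283, Pearson's r was 0.38 (permutation p = 0.225, adjusted p = 0.505 over 3486 pairs) and Spearman's rho was 0.27 (permutation p = 0.396, adjusted p = 0.723), and r was 0.40 without dsVg pool 5 and dsGFP pool 2, the pools farthest from the median of miR-12. Without dsGFP pool 2 alone r was 0.16, whereas leaving out only the 2 bright spots of miR-283 in that pool gave 0.33. In this and the next paragraph, the remaining arrays were normalized again when a single pool was left out. The r without 2 pools kept the normalization of all 12, so the 2 sorts of r are not strictly alike.

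For miR-12 and miR-3477, r was -0.63 (permutation p = 0.0228, adjusted p = 0.160) and rho was -0.46 (permutation p = 0.135, adjusted p = 0.474). The relation rests on the extreme pools: r was -0.17 without dsVg pool 5 and dsGFP pool 2, and -0.31 without dsVg pool 5 alone. In dsVg pool 5 miR-3477 was at its highest normalized value and miR-12 at its lowest. For miR-283 and miR-3477, r was -0.32 (permutation p = 0.327, adjusted p = 0.606) and rho was -0.56 (permutation p = 0.0591, adjusted p = 0.334). That r was -0.0021 without dsVg pool 3 and dsGFP pool 2, the pools farthest from the median of miR-283, and -0.78 without dsVg pool 5.

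Within the 6 arrays with many detected miRNAs r was 0.69 for miR-12 and miR-283 (exact permutation p = 0.129), -0.23 for miR-12 and miR-3477 (exact permutation p = 0.661) and -0.78 for miR-283 and miR-3477 (exact permutation p = 0.0333). Within the other 6 arrays the values were 0.12 (exact permutation p = 0.844), -0.79 (exact permutation p = 0.0861) and -0.19 (exact permutation p = 0.375). Within the 6 dsVg pools they were 0.31, -0.79 and -0.31, and within the 6 dsGFP pools 0.62, -0.15 and -0.73. The signs of the 3 pairs were thus the same in each subset, but no value passed adjustment over all pairs (adjusted p of 0.328 to 0.959). Over all 3486 pairs of tested miRNAs the median r was 0.0030 (quartiles -0.33 and 0.33), 21.1% of pairs had an unadjusted permutation p under 0.05 and 5.31% passed the adjusted threshold. Of the 3 pairs of members 1 had such an unadjusted p and 0 passed the adjusted threshold.

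**Figure D4:**
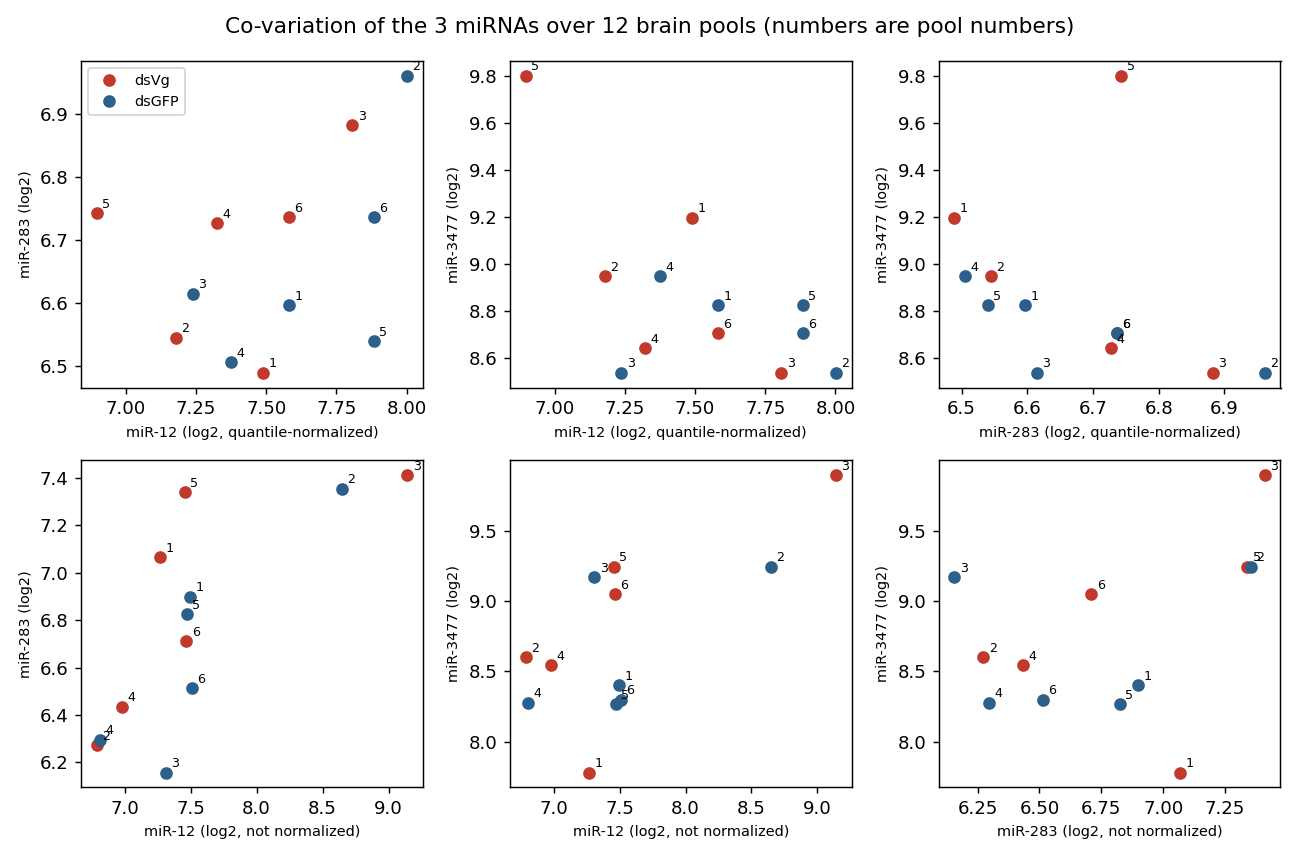
Log2 signals of each pair of members over the 12 pools, quantile-normalized (top row) and without normalization (bottom row), for dsVg pools (red) and dsGFP pools (blue) with pool numbers. In the top row dsVg pool 5 combines the lowest miR-12 with the highest miR-3477 (r = -0.63 for that pair), while in the bottom row all 3 pairs have a positive r.

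The sign of these correlations depends on the scaling. Without normalization, where members of an array share its overall brightness, r was 0.75 for miR-12 and miR-283 (permutation p = 0.00131, adjusted p = 0.00882, rho 0.69), 0.69 for miR-12 and miR-3477 (permutation p = 0.0130, adjusted p = 0.0478, rho 0.38) and 0.40 for miR-283 and miR-3477 (permutation p = 0.203, adjusted p = 0.346, rho 0.31). The median over all pairs was then 0.43, and 27.7% of all pairs passed the adjusted threshold, so 2 of 3 pairs of members passing is read against a background that is itself high. Without dsVg pool 3 and dsGFP pool 2, in which the raw signal of miR-12 was highest, r was 0.59 for miR-12 and miR-283 and 0.17 for miR-12 and miR-3477. The positive relation of miR-12 and miR-3477 therefore rests on these 2 pools. Within the arrays with many detected miRNAs, which still hold dsVg pool 3, these r were 0.79 (exact permutation p = 0.0319) and 0.76 (exact permutation p = 0.0917). Within the others, which still hold dsGFP pool 2, they were 0.69 (exact permutation p = 0.0569) and 0.50 (exact permutation p = 0.392).

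**Figure D5:**
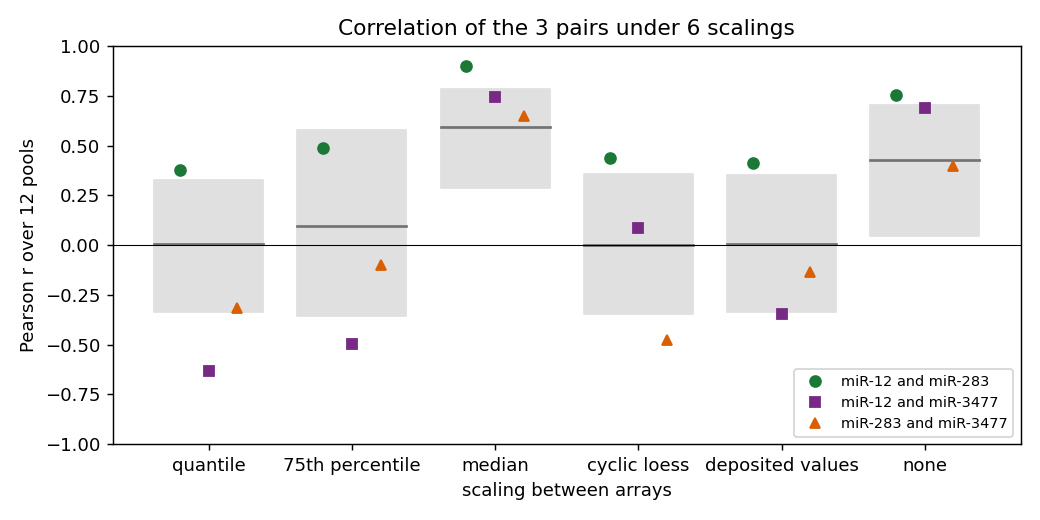
Pearson r over 12 pools for the 3 pairs of members under 6 treatments of the values between arrays; grey boxes span the quartiles of r over all pairs of tested miRNAs and the grey line is their median. miR-12 and miR-283 are positive under all 6, whereas miR-12 and miR-3477 run from -0.63 with quantile normalization to 0.74 with scaling to the median.

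The pair of miR-12 and miR-283 was the one with a positive r under each of these settings (0.38 with quantile normalization, 0.49 with the 75th percentile, 0.90 with the median, 0.44 with cyclic loess, 0.41 in the deposited values and 0.75 without normalization). It lay above the upper quartile of all pairs under 5 of the 6, the exception being the 75th percentile, where that quartile was 0.58. Since miR-283 exceeded the empty spots on 7 of 12 arrays, and on 6 without its 2 bright spots, these r describe probe signals. On the remaining arrays they set miR-12 against a signal not told apart from background. For comparison, 133 probes were matched to a precursor in the RefSeq table, and 8 other pairs of tested miRNAs lay within 10 kb of each other. Their r after quantile normalization was positive in 8 of 8, with a median of 0.33, from 0.07 for miR-306 and miR-79 to 0.58 for miR-193 and miR-2788. On that scale both pairs with miR-3477 (-0.63 and -0.32) lay below these 8. Without normalization the order was different: the same 8 pairs ran from -0.26 for miR-996 and miR-279 to 0.99 for miR-2944 and miR-3791, with 7 of 8 positive and a median of 0.39, and the pairs with miR-3477 stood at 0.69 and 0.40. These r are given as a description, since all pairs share the same 12 arrays.

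The miRNAs whose pattern over the 12 pools was most like that of each member were taken by Pearson's r after quantile normalization. For miR-12 they were miR-305 (0.90), miR-1000 (0.87) and miR-13b (0.82), and without normalization these r were 0.98, 0.91 and 0.49. For miR-283 they were miR-190 (0.93), miR-79 (0.72) and miR-928 (0.71), with 0.92, 0.84 and 0.77 without normalization. These 3 exceeded the empty spots on 7, 7 and 6 arrays, so that pattern is one of dim probes. For miR-3477 they were miR-3719 (0.91), miR-279c (0.91) and miR-275 (0.88), with 0.59, 0.69 and 0.91 without normalization. None of the 9 is a genomic neighbour of its member in the table used, and the limma adjusted p of their own differences ran from 0.666 to 0.875.

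Among 17 tested miRNAs of other insect clusters (a list of 19 names, among them let-7, miR-34 and miR-277), 8 were higher and 9 lower in dsVg than in dsGFP brains, with 0 past the limma adjusted threshold in either direction. Their median difference was -0.04, against 0.03 over all 84 tested miRNAs, with miR-1 (-0.90) and miR-275 (0.61) at the ends. Of the 3 neighbours 2 were higher and 1 lower, with a median of 0.03.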

How the data were processed

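The deposited scanner tables hold spot intensities of a 1-colour Cy3 array on a linear scale with the background included, per the file headers, and the label protocols describe poly(A) tailing, tag ligation and staining by a service provider. The header of dsGFP pool 1 names the median of a spot and the other headers the mean, and dsVg pool 5 holds only whole numbers. The authors' deposited value table holds intensities of each miRNA as whole numbers, processed by a method not given in the sources used here. Scanner and image software are likewise not given in them.

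Each array has 3968 spots, of which 608 are empty and 18 carry each miRNA probe. A probe counted as above background where the mean over its spots lay beyond the 95th percentile of the empty spots, and it was tested if this held on at least 6 of 12 arrays. Intensities were background-corrected with limma 3.58.1 in R 4.3.3 (normexp, offset 50, fitted on all spots), averaged over spots on the log2 scale and quantile-normalized. Groups were compared with limma's moderated test, two-sided, with Benjamini-Hochberg adjustment over the 84 tested miRNAs, and with exact permutation. Ratios and correlations were tested by exact permutation or 100000 resamples with Python 3.11.15 and adjusted over 3486 pairs. The scripts were checked on simulated data. Array number limits the precision. The p-values measure the spread between pools of 5 bees, each run on its own array, so pool and array spread cannot be told apart.

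The members, the marker miRNAs and the list of clustered miRNAs were chosen with earlier results of these data known. The named miRNAs are the members, the 3 of highest r with each, the neighbouring pairs of highest and lowest r, and the ends of the list. Neighbours were to lie within 10 kb on one strand, but the gene table gives no strand, so strand was not used. It names no build shared with the files, so no coordinates are given. Alternatives covered background correction, scaling, detection threshold, filters, array weights, the replicate block and single pools. The 75th percentile of the miRNAs detected on all arrays, the removal of 2 bright spots, correlations within each group and the interaction with sort of array were added after seeing the data. No 2 arrays of a group agreed within sampling noise.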

Additional observations from a re-analysis of the deposited data

Results flagged for a closer look

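In 5 of 30 groups of pools that were checked, 1 pool stood apart from the others by Dixon's criterion at the 95% level, and chance alone gives about 1 in 20. The intensity of miR-12 over the empty spots was 4.83 in dsVg pool 3, against a next highest dsVg value of 1.361. For miR-3477 the ratio was 7.819 in dsVg pool 3, with 3.801 next among dsVg pools. In dsGFP pool 3 it was 7.886, with 3.451 next among dsGFP pools. The deposited value of miR-3477 was 519 in dsVg pool 5, against 258 in the next dsVg pool. The 18 spots of miR-283 in dsGFP pool 2 had a coefficient of variation of 86.1%, against 5.88% on the next dsGFP array, because 2 spots were bright.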

How the results depend on the processing

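The differences of the 3 members stayed on the same side of the threshold under each alternative run, with limma adjusted p of 0.311 to 0.988 for miR-12, 0.640 to 0.999 for miR-283 and 0.448 to 0.984 for miR-3477. Their direction did not always hold. The miR-12 difference was 0.09289 within the arrays with over 80 detected miRNAs. That of miR-283 was -0.09798 with plain subtraction, -0.004811 without background correction, -0.2599 with the 75th percentile of the miRNAs detected on all arrays and -0.01052 within the other arrays. That of miR-3477 was -0.2168 with the same percentile and -0.01145 with array weights, and array weights put 1 of 84 miRNAs past the adjusted threshold, against 0. Leaving out 1 pool at a time gave -0.3525 to -0.1888 for miR-12, -0.01036 to 0.08888 for miR-283 (also -0.002557 without dsGFP pool 4) and 0.081 to 0.32 for miR-3477. The ratio of miR-12 to miR-283 was 0.0265 within the arrays with over 80 detected miRNAs, and that of miR-283 to miR-3477 was 0.02703 with cyclic loess and 0.152 in the deposited values. The unadjusted exact permutation p of the first ratio was 0.0433 with cyclic loess and 0.0455 in the deposited values. It was 0.0433 without dsVg pool 1 and 0.0260 without dsGFP pool 3. For the ratio of miR-12 to miR-3477 the unadjusted exact permutation p was 0.0411 without dsVg pool 3. None of these passed the adjusted threshold.

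The correlations moved most. That of miR-12 and miR-283 passed the adjusted threshold at 0.8988 with scaling to the median, 0.7547 without normalization and 0.7787 with the percentile over miRNAs detected on all arrays. That of miR-12 and miR-3477 was 0.7431, 0.6875 and 0.7296 under those settings and 0.08557 with cyclic loess, and that of miR-283 and miR-3477 was 0.6475, 0.3958 and 0.5659. miR-283 exceeded the empty spots on 4 arrays at the 99th percentile and on 1 at the median plus 3 SD. The cause of these changes was not tested.

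The pool numbers were not treated as pairs: same-numbered pools correlated at -0.27 to 0.53, and 1 of 12 pools correlated best with its own number. With the replicate block the differences stay at -0.28, 0.03 and 0.24 by design, since each number holds 1 pool of each group. Only the p-values can move. The limma adjusted p was 0.753 for miR-12, 0.904 for miR-283 and 0.753 for miR-3477. Signal over background limits miR-283 in most pools and, by the empty-spot threshold, miR-12 in dsVg pools 4 and 5.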
